A study of Mus musculus with 5 samples.

Results

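The nuclear-encoded subunits of the mitochondrial respiratory chain and ATP synthase were examined in mouse liver RNA-seq. Members were rows of the deposited expression table whose symbol belongs to the Ndufa, Ndufb, Ndufc, Ndufs, Ndufv, Ndufab, Sdh, Uqcr, Cyc1, Cox4 to Cox8 (with a letter a, b or c) or Atp5 genes. Ndufaf assembly factors and symbols containing -ps, a mark of pseudogenes, were left out. The mean over all libraries had to be at least 1 FPKM (mapped fragments scaled to transcript length and library size). The table has 33589 rows. By symbol 92 of them matched, and 85 of these reached the threshold. The rows of Ndufb4, Ndufb4b and Ndufb4c hold the same values once each, so 83 members with distinct values were counted, against 10820 rows in all that reached 1 FPKM. There were 39 members in complex I, 4 in complex II, 9 in complex III, 13 in complex IV and 18 in complex V, with Ndufa4, which despite its name is a subunit of complex IV, placed there together with its paralog Ndufa4l2.

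The 5 libraries came from livers of male mice, given as 6 weeks old, that had received a high-fat diet over 4 weeks. In the 2 controls both alleles of Heg1 were floxed (genotype Hegfl/fl in the labels) and no Cre was present. The 3 knockouts carried the same floxed alleles with Lyve1-Cre, whose driver gene is active in lymphatic and liver sinusoidal endothelial cells and not in hepatocytes. Floxed Heg1, diet and sex were thus shared by all libraries, and the Cre was the only difference between the groups that the labels record. The series title names hepatocytes, the labels give liver as the tissue, and in whole liver fewer cells of a type cannot be told apart from less RNA per cell. Whether the libraries are different animals is not stated. The SDs given here are the spread among the libraries, which may be technical. That spread enters the SEs and intervals only in part. They come from limma with a trended prior, which draws each gene's variance toward that of all rows fitted. For Atp5f1a, with a coefficient of variation of 1.17%, the SE was 0.083 on the log2 scale.

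The respiratory chain passes electrons from NADH through complex I, and from succinate through complex II, to coenzyme Q, then through complex III and cytochrome c to complex IV, which reduces oxygen. Complexes I, III and IV pump protons across the inner mitochondrial membrane, and complex V, the ATP synthase, uses the gradient to make ATP. Most subunits are encoded in the nucleus and imported, while a few core subunits of complexes I, III, IV and V are encoded by the mitochondrial genome. Hepatocytes are rich in mitochondria and use the chain to run fatty acid oxidation, gluconeogenesis and urea synthesis.

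Summed FPKM were between 797692 and 820498 per library. These values hold no read totals, and the depth behind them is unknown. Heg1, the targeted gene (chromosome 16, 33684370 to 33771576, plus strand of mm10), was at 0.48 and 0.35 FPKM in the controls and 0.45, 0.43 and 0.50 FPKM in the knockouts, with overlap. Its log2 fold change was 0.046 (SE 0.11). This value covers the whole gene and all liver cells, and the part removed by Cre was not measured apart. The 10 hepatocyte markers (Alb, Ttr and others) were all detected. They summed to 99783 and 93500 FPKM in the controls and 84623, 81067 and 98263 FPKM in the knockouts. In mean 5 were lower and 5 higher. All knockouts lay below both controls in 3 of these 10 (6.38% of all rows) and above both in 1 (18.9%). Their part in the subunit values was not tested. The 12 markers of sinusoidal endothelium summed to between 166 and 218 FPKM. Knockout 1 stood apart in erythrocyte transcripts, which summed to 1329 FPKM there and to between 136 and 244 FPKM in the other 4 libraries. Of 10 muscle markers 7 were listed at 0 in every library, and the list summed to between 0.34 and 2.43 FPKM.

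Most members were expressed at a high level, with a median of 153 FPKM over the members and a range from 3.07 to 1290 FPKM, against a median of 8.36 FPKM over all 10820 rows. Together the members made up between 2.07% and 2.27% of all FPKM in a library. Levels compared here are per transcript length. Atp5f1b, the catalytic β subunit of ATP synthase, was the most abundant at 1290 FPKM, followed by Cox6a1 (702 FPKM), Uqcrq (600 FPKM) and Ndufa4 (520 FPKM). The median level was lowest in complex I (108 FPKM, range 21.8 to 325), and was 183 FPKM in complex II, 311 FPKM in complex III, 264 FPKM in complex IV and 279 FPKM in complex V. The members varied little between libraries, with a median coefficient of variation over the 5 libraries of 7.67%, against 13.1% over all tested rows and 8.79% over the 775 other rows with at least 100 FPKM.

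**Figure D1:**
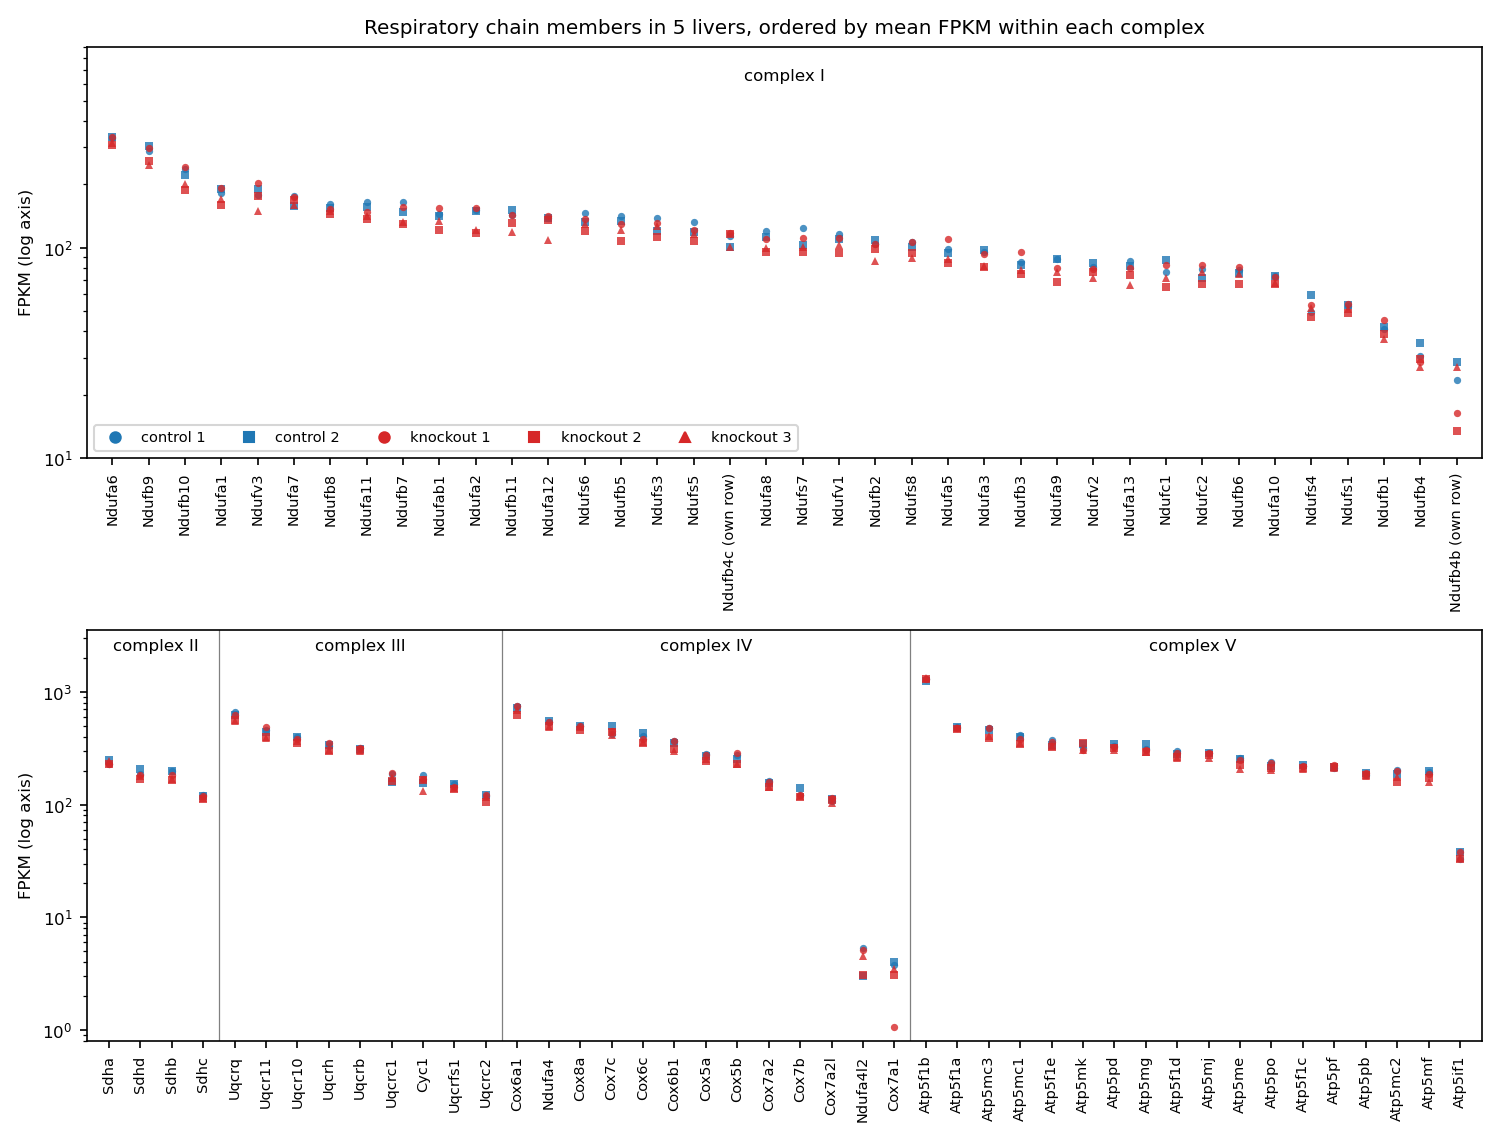
FPKM (log axis) of 82 of the 83 members in each library, upper panel complex I and lower panel complexes II to V, ordered by mean within a complex. Points of the 5 libraries nearly coincide for most members, and only Ndufa4l2 and Cox7a1 lie below 10 FPKM.

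The tissue isoforms set the lower end of the range. Liver carried the ubiquitous form of each complex IV pair, Cox6a1, Cox6b1 (338 FPKM), Cox7a2 (152 FPKM) and Cox8a (486 FPKM). The heart and muscle form Cox7a1, at 3.07 FPKM, and Ndufa4l2, at 4.23 FPKM, were the members just inside the threshold. Just outside it were Cox6b2 (0.296 FPKM), a testis form, and Cox8b (0.234 FPKM), a muscle form that was detected in control 2 alone. Ndufs6b (0.198 FPKM) and Cox6a2 (0.022 FPKM), the muscle partner of Cox6a1, were lower still, and Cox7b2, Cox8c and Ndufb11b were listed at 0 in every library. Cox4i1, the largest nuclear-encoded subunit of complex IV, does not match the symbol rule. It had 712 and 670 FPKM in the controls and 705, 590 and 607 FPKM in the knockouts, while its paralog Cox4i2 did not exceed 0.11 FPKM.

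Between genotypes most subunit transcripts lay slightly lower in the knockouts, and none passed the test. The log2 fold change, a difference of mean log2(FPKM + 1), knockout minus control, was negative for 77 of 83 members, where 35.8% of all 10820 rows were negative. Its median was -0.10 over the members and 0.061 over all tested rows. With limma over all rows and Benjamini-Hochberg adjustment at 0.05, 0 of 83 members were called, as were 0 of 10820 rows (0.0%), and the smallest adjusted p of a member was 0.708. No member had an unadjusted p below 0.05 (0 of 83), while 757 rows (7.0%) had one, and no other tool was run. In 28 of 83 members (33.7%) all 3 knockouts lay below both controls, where 6.38% of all rows did so, and in 0 members did all knockouts lie above both controls, where 18.9% of all rows did.

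Markers of other cells also differed in mean between the genotypes. All 9 Kupffer cell markers were higher in mean in the knockouts, where 6942 of all 10820 rows were higher. In 0 of these 9 did the groups separate. Their sums were 237 and 395 FPKM in the controls and 325, 417 and 396 FPKM in the knockouts. The 3 tested cholangiocyte markers and the 5 tested erythrocyte markers were likewise all higher in mean. Erythrocyte sums were 136 and 146 FPKM in the controls and 1329, 244 and 141 FPKM in the knockouts. That difference came mainly from knockout 1, and knockout 3 lay between the controls. Of the 10 stellate cell markers 8 were lower in mean, and in 0 did the groups separate. The 12 sinusoidal endothelium markers went both ways, with 5 lower and 7 higher, where 35.8% of all rows were lower. Of these 12, 0 lay wholly below the controls and 1 wholly above. Cholangiocyte sums were 29.7 and 40.7 FPKM in the controls and 72.6, 51.2 and 55.3 FPKM in the knockouts. Most of each sum came from Spp1, with 26.0 and 38.4 FPKM in the controls and 66.4, 47.8 and 50.4 FPKM in the knockouts. The other tested cholangiocyte markers, Krt19 and Epcam, were low (means of 1.46 and 1.12 FPKM) and overlapped. None of these lists held a called gene, and their part in the subunit values was not tested.

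The shares of lower members moved with level and with scaling. Among the 775 other rows with at least 100 FPKM, a band chosen after the values were seen, 62.1% were lower and 15.6% lay wholly below the controls, against 92.2% and 32.8% of the 64 members with at least 100 FPKM. With median-of-ratios scaling 83 of 83 members were lower and 47 lay wholly below the controls, against 12.1% of all rows (11.9% wholly above). With quantile normalization 75 were lower and 28 lay wholly below, against 11.5% of all rows (10.9% wholly above). With a correction for transcript length 78 of 82 were lower and 46 lay wholly below, against 12.2% of all rows (10.1% wholly above). Members had short transcripts, with a median of 1030 nt against 3220 nt over all rows, and the part of length and level in the result was not tested beyond these values. Across the 82 members with a length, fold change and transcript length had a Spearman correlation of -0.03, a description over genes that share the same libraries. The single differences were small against their limma error, the median half-width of the 95% intervals being 0.25 on the log2 scale. The interval excluded a fall of 0.5 for 79 members and a rise of 0.5 for 82.

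**Figure D2:**
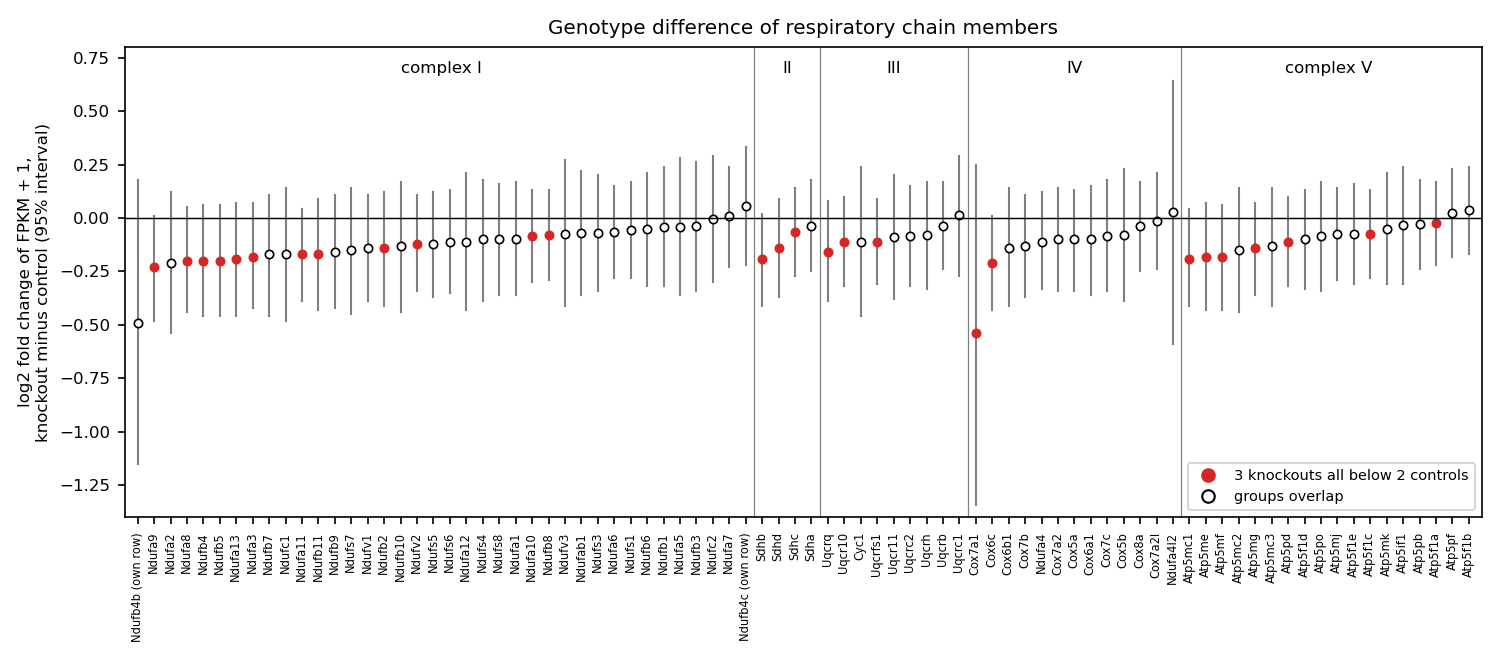
Log2 fold change of FPKM + 1, knockout minus control, with the 95% interval of limma for 82 of the 83 members, sorted within complexes I to V. Filled points are members whose knockouts all lie below both controls, and most points lie under the line at 0 while every interval crosses it.

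The genotype groups were not uniform, and knockout 1 resembled the controls. Relative to each member's mean over the 5 libraries, the average member stood at 0.076 and 0.057 in the controls, at 0.047 in knockout 1, and at -0.10 and -0.080 in knockouts 2 and 3 (log2 scale). Knockout 2 was below the member's mean in 75 of 83 members and knockout 3 in 75, but knockout 1 in only 14, beside 10 and 16 for the controls. The lowest library of a member was knockout 2 in 46 cases and knockout 3 in 32. Highest was control 1 in 31 cases, control 2 in 26 and knockout 1 in 24. Knockout 1 lay below both controls in 31 members, between them in 28 and above both in 24.

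Without knockout 1, the library with the high erythrocyte transcripts, the 2 other knockouts lay below both controls in 66 of 83 members, against 12.1% of all rows, and the median log2 fold change was -0.16. The fewer libraries are compared, the more often groups separate. Still 0 members were called without knockout 1, and 2 had an unadjusted p below 0.05. Whether the erythrocyte content of knockout 1 had a part in its subunit levels was not tested. Without control 2, by contrast, the members lying wholly below numbered 46, against 15.3% of all rows.

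**Figure D3:**
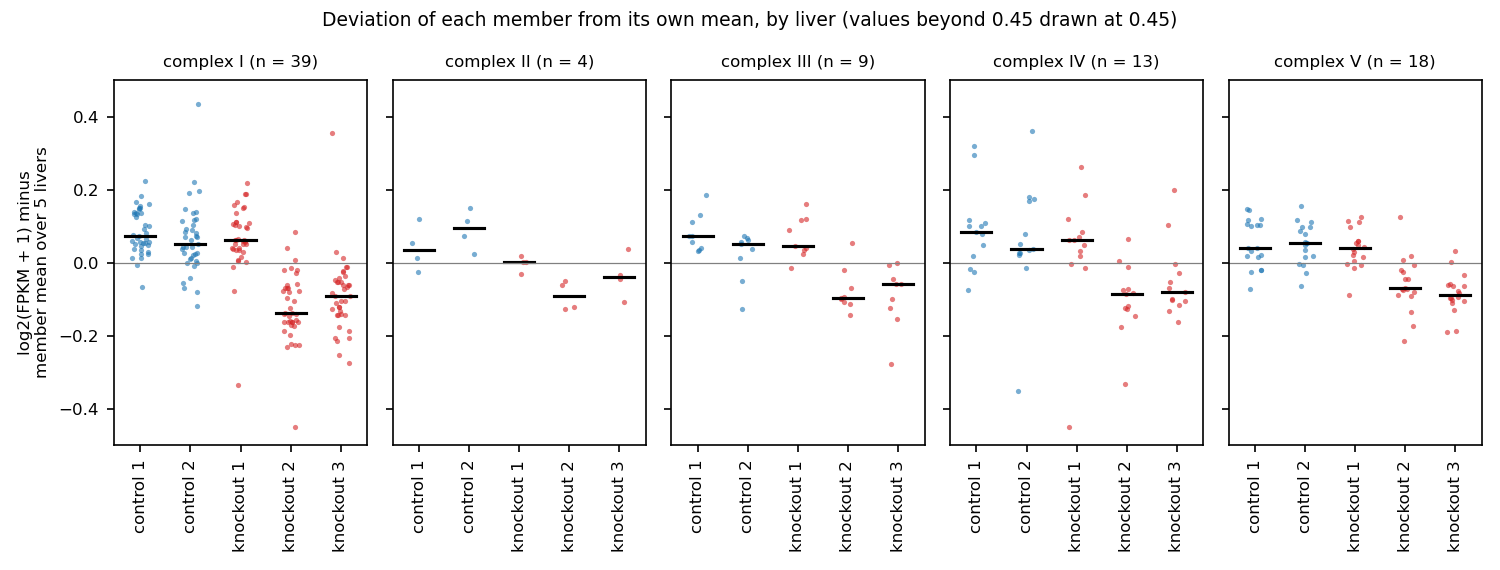
Deviation of each member's log2(FPKM + 1) from its own mean over the 5 libraries, by library and complex. Bars are medians, and values beyond 0.45 are drawn at 0.45. In complexes I, III, IV and V knockout 1 sits beside the controls above 0, while knockouts 2 and 3 sit below 0 in all 5 complexes.

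Complex I, the NADH dehydrogenase, had the most negative median of the 5 complexes, -0.12, with 37 of 39 members lower. It had 13 members (33.3%) wholly below the controls, against 6.38% of all rows and 15.6% of other rows with at least 100 FPKM. By summed FPKM it stood at 4894 and 4782 in the controls and at 4869, 4254 and 4294 in the knockouts, so that knockout 1 lay between the controls. Ndufa9, an accessory subunit that stabilises the junction between the hydrophilic and the membrane arm (ENSMUSG00000000399.10, chromosome 6, 126821721 to 126849136, minus strand, mm10), had the smallest p of the complex. It had 88.2 and 88.8 FPKM in the controls and 80.4, 68.5 and 76.7 FPKM in the knockouts, with no overlap. Its log2 fold change was -0.23 (SE 0.10, limma adjusted p = 0.708).

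Ndufa8, a twin CX9C protein of the intermembrane space side (chromosome 2), had 121 and 113 FPKM in the controls and 110, 95.9 and 99.8 FPKM in the knockouts. Its groups were close at knockout 1 and did not overlap. Ndufa11, a membrane subunit needed for assembly and supercomplexes (chromosome 17), had 166 and 156 FPKM in the controls and 148, 137 and 142 FPKM in the knockouts, again without overlap. The log2 fold changes of these were -0.20 (SE 0.10) and -0.17 (SE 0.090), and both had an adjusted p of 0.725. The most abundant members of complex I were Ndufa6, with a LYR motif, and Ndufb9. Ndufa6 had 334 ± 1.46 FPKM (SD, n = 2) in controls and 319 ± 15.3 FPKM (SD, n = 3) in knockouts. Ndufb9 had 297 ± 12.7 and 267 ± 26.6 FPKM, and in both genes knockout 1 lay with the controls.

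By structural module the membrane arm, which pumps protons, stood at a median of -0.15 over 22 members, 10 of them wholly below the controls. The Q module, which reduces coenzyme Q, stood at -0.13 over 6 members (2 wholly below), and the N module, which oxidises NADH, at -0.10 over 11 members (1 wholly below). Over all rows 6.38% lay wholly below the controls, and 15.6% of the 775 other rows with at least 100 FPKM did. The N module, at 9.09%, lay between these shares. Differences between modules were not tested. The 7 nuclear-encoded core subunits, a set chosen after the values were seen, were all lower with a median of -0.12, the same as the 32 other members of complex I. Among them Ndufs1, which carries iron-sulfur clusters, had 53.3 ± 0.523 and 51.4 ± 2.76 FPKM. Of the members that were not lower, Ndufa7 had 167 ± 12.5 and 167 ± 7.28 FPKM.

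Ndufb4 and its copies are uncertain as single genes. In the GENCODE annotation Ndufb4c is a processed pseudogene, which the symbol rule did not remove, and Ndufb4b was not found. One set of values (30.6 and 35.3 FPKM for controls, 28.5, 29.7 and 27.2 FPKM for knockouts) is listed under Ndufb4, Ndufb4b and Ndufb4c alike. A separate row of Ndufb4c, the member with the largest positive value in the complex, had a mean of 107 ± 8.92 FPKM over controls and of 111 ± 9.48 FPKM over knockouts. The resulting value of 0.056 (log2 fold change, SE 0.11) turned to -0.011 with median-of-ratios scaling. The separate row of Ndufb4b, the lowest member of the complex, had 23.4 and 28.7 FPKM for controls and 16.4, 13.5 and 27.1 FPKM for knockouts, and its groups overlapped.

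Complex II, succinate dehydrogenase, is the only complex here with no subunit from the mitochondrial genome, and it also belongs to the citric acid cycle. All 4 members were lower in mean, with a median of -0.10. Wholly below the controls lay 3 (75.0%), against 6.38% of all rows and 15.6% of other rows with at least 100 FPKM. Sdhb, the iron-sulfur subunit (ENSMUSG00000009863.14, chromosome 4, 140961203 to 140979193, plus strand), had 197 and 196 FPKM in the controls and 181, 166 and 168 FPKM in the knockouts. The controls differed by under 1 FPKM and the groups did not overlap, with a log2 fold change of -0.19 (SE 0.090, limma adjusted p = 0.718). Sdhd, a membrane anchor, had 186 and 205 FPKM in the controls and 185, 169 and 179 FPKM in the knockouts, knockout 1 being just under control 1. Sdhc, the other anchor, had a log2 fold change of -0.064 (SE 0.087), again with a narrow gap between knockout 1 and the lower control. Sdha, the flavoprotein that oxidises succinate (chromosome 13), had 231 and 247 FPKM in the controls and 230, 227 and 241 FPKM in the knockouts. It overlapped, with a log2 fold change of -0.038 (SE 0.089) that was 0.019 with quantile normalization.

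The promoters of the catalytic pair of complex II are shown, from RefSeq on GRCm38.p6 (the assembly also called mm10), since Sdha and Sdhb sit in the same catalytic unit and are the extremes of the complex in these data. Each runs 5′ to 3′ on the gene's strand from 250 bases before to 50 after the annotated start. Capitals mark matches on either strand to GCGC, any base, then TGCGC (NRF1, nuclear respiratory factor 1, a known regulator of respiratory genes) or CCGGAAG (ETS factors, among them GABPA, nuclear respiratory factor 2). The Sdha window is chr13:74350191-74350490 on the minus strand and holds 3 NRF1 matches. The Sdhb window is chr4:140961021-140961320 on the plus strand and holds 1 ETS match just after the start.
Sdha: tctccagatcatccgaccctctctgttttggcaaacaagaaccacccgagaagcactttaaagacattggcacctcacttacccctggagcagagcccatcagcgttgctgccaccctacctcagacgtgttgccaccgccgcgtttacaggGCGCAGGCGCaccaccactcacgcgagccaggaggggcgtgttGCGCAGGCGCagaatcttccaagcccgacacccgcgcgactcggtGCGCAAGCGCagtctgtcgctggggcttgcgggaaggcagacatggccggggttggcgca
Sdhb: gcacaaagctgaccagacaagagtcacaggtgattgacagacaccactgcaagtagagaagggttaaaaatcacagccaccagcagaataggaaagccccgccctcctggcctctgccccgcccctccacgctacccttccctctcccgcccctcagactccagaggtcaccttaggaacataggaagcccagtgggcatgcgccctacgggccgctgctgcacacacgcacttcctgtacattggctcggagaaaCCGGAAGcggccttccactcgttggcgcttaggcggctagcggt

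Complex III, the cytochrome bc1 complex, had 8 of 9 members lower, with a median of -0.091. It had 3 members (33.3%) wholly below the controls, against 6.38% of all rows and 15.6% of other rows with at least 100 FPKM. Its sums were 2795 and 2698 FPKM in the controls and 2774, 2489 and 2461 FPKM in the knockouts. Uqcrq, the small subunit that contacts cytochrome b (ENSMUSG00000044894.14, chromosome 11, 53427922 to 53430831, minus strand), was the most abundant and had the smallest p of the complex. It had 655 and 622 FPKM in the controls and 616, 558 and 549 FPKM in the knockouts. Knockout 1 lay just under control 2, and the log2 fold change was -0.16 (SE 0.096, limma adjusted p = 0.760). Uqcrfs1, the Rieske iron-sulfur protein, had 153 and 151 FPKM in the controls and 144, 138 and 141 FPKM in the knockouts. Uqcr10 had 393 and 397 FPKM and 384, 354 and 363 FPKM. In both the groups did not overlap. Uqcr11 had 449 ± 8.05 FPKM in controls and 423 ± 52.0 in knockouts, with knockout 1 the highest library. The core proteins Uqcrc1 and Uqcrc2 overlapped, with 174 ± 20.3 and 175 ± 13.4 FPKM for Uqcrc1. For Uqcrc2, the lowest member of the complex, the log2 fold change was -0.082 (SE 0.098).

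Complex IV, cytochrome c oxidase, had 12 of 13 members lower, with a median of -0.10. It had 2 members (15.4%) wholly below the controls, against 6.38% of all rows and 15.6% of other rows with at least 100 FPKM. These 2 were Cox6c and the low Cox7a1. Cox6c (ENSMUSG00000014313.15, chromosome 15, 35925886 to 35938246, minus strand) had 407 and 433 FPKM in the controls and 384, 353 and 356 FPKM in the knockouts. Its groups did not overlap, and its log2 fold change was -0.21 (SE 0.092, limma adjusted p = 0.708). Cox6a1 had 742 and 718 FPKM in the controls and 742, 620 and 686 FPKM in the knockouts, so that knockout 1 equalled control 1. Ndufa4 had 537 and 549 FPKM and 537, 493 and 485 FPKM, with knockout 1 again at the level of control 1. Cox6b1, Cox7a2 and Cox7b overlapped in the same way, with log2 fold changes of -0.14, -0.10 and -0.13, and Cox8a differed least of the complex IV subunits (-0.038, SE 0.087).

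Among the isoforms and relatives within complex IV, Cox7a1 and Ndufa4l2 varied widely between libraries (coefficients of variation 38.3% and 26.7%), while Cox7a2l did not (3.79%). Cox7a1 (chromosome 7) had 3.77 and 3.99 FPKM in the controls and 1.06, 3.07 and 3.46 FPKM in the knockouts, without overlap. Its log2 fold change was -0.54 (SE 0.33) with a 95% interval from -1.34 to 0.25, and it was -0.20 without knockout 1. The muscle marker sum was highest in that library, at 2.43 FPKM, but all of it came from Mylpf, and every other muscle marker was at 0 there. Ndufa4l2, known as a target of hypoxia-inducible factor 1 and not counted as a subunit, had 5.41 and 3.02 FPKM in the controls and 5.15, 3.08 and 4.51 FPKM in the knockouts. It overlapped, and its log2 fold change of 0.027 (SE 0.26) turned to -0.029 with median-of-ratios scaling, -0.062 with quantile normalization and -0.31 without control 2. Cox7a2l, a factor that links complexes III and IV into supercomplexes, had 107 and 111 FPKM in the controls and 113, 109 and 102 FPKM in the knockouts, and its log2 fold change of -0.014 (SE 0.092) was 0.012 without control 2.

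Complex V had 16 of 18 members lower, with a median of -0.079. It had 7 members (38.9%) wholly below the controls, against 6.38% of all rows and 15.6% of other rows with at least 100 FPKM. Its sums were 6138 and 6036 FPKM in the controls and 6022, 5733 and 5668 FPKM in the knockouts. The F1 head, where ATP is made, had a median of -0.073 over 5 members, and the membrane, stalk and accessory members had -0.11 over 13. Atp5f1b had 1306 and 1234 FPKM in the controls and 1285, 1304 and 1318 FPKM in the knockouts, 1 of the 6 members with a positive value (0.037, SE 0.086), which was -0.031 with median-of-ratios scaling. Atp5f1a, its α partner, had 483 and 484 FPKM in the controls and 477, 470 and 479 FPKM in the knockouts. These groups did not overlap, but the log2 fold change was only -0.024 (SE 0.083). It had the lowest coefficient of variation of the 83 members, 1.17%.

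The proton-carrying ring of complex V is built from the c subunit, which the 3 genes Atp5mc1, Atp5mc2 and Atp5mc3 encode with different import sequences. Atp5mc1 (ENSMUSG00000006057.15, chromosome 11, 96068852 to 96075670, minus strand) had 417 and 397 FPKM in the controls and 380, 342 and 350 FPKM in the knockouts, with no overlap and a log2 fold change of -0.19 (SE 0.093, limma adjusted p = 0.720). Atp5mc3 had 473 and 456 FPKM in the controls and 479, 389 and 407 FPKM in the knockouts. Atp5mc2 had 203 and 188 FPKM and 199, 158 and 174 FPKM. In both of these knockout 1 lay within or above the controls, so only Atp5mc1 of the 3 separated the groups.

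Atp5mf and Atp5me, small membrane subunits that take part in dimers of the enzyme (both on chromosome 5), also lay wholly below the controls. Atp5mf had 195 and 197 FPKM in the controls and 187, 173 and 159 FPKM in the knockouts. Atp5me had 258 and 254 FPKM and 247, 223 and 208 FPKM. Their log2 fold changes were both -0.18 (SE 0.10), with limma adjusted p of 0.735 and 0.739. Atp5if1, the inhibitor of ATP hydrolysis and not a subunit, was the lowest member of complex V, with 33.3 and 37.9 FPKM in the controls and 37.9, 32.8 and 33.5 FPKM in the knockouts, and overlapped.

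The promoters of Atp5me and Atp5f1b are shown in the same layout, since they stand for a member wholly below the controls and for the member with the highest level and a positive value. The Atp5me window (chr5:108434350-108434649, minus strand) holds an NRF1 match followed by an ETS match. The Atp5f1b window (chr10:128083057-128083356, plus strand, RefSeq symbol Atp5b) holds none of the letters searched.
Atp5me: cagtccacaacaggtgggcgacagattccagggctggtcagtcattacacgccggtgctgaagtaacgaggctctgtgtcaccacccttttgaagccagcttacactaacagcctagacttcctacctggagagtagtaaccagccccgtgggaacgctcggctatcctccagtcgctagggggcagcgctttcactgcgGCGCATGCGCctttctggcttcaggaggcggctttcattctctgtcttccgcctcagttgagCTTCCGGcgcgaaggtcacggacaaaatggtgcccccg
Atp5f1b: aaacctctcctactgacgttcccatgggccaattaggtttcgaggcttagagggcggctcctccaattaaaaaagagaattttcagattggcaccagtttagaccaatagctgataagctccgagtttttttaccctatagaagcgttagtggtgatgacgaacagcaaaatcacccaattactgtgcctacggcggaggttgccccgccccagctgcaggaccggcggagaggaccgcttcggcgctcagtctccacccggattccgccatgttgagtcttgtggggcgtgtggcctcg

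Of the 83 member symbols 69 had a RefSeq promoter window, and a gene with several windows was counted once. The NRF1 letters were found in 18 of 69 members (26.1%), against 5.19% of all 27025 genes with a window and 12.0% of the 8554 that reached 1 FPKM. ETS letters were found in 17 members (24.6%), against 9.93% of all genes and 21.2% of those that reached 1 FPKM. The YY1 letters ATGGCGGC were found in 7 members (10.1%), against 2.60% and 6.18%, and 6 of these 7 belonged to complex I, which held 34 of the 69 members with a window. Matches of different motifs overlapped in 0 places in the member windows. The genotype values of members with and without each motif are given as a description, and their difference was not tested. Of the 18 with NRF1 letters 7 lay wholly below the controls with a median log2 fold change of -0.11, and of the 51 without them 17 did so with a median of -0.10. For ETS letters these values were 5 of 17 and -0.10 with them, and 19 of 52 and -0.11 without. For YY1 letters they were 2 of 7 and -0.11 with them, and 22 of 62 and -0.10 without. Ndufb4b, whose window holds none of the letters, entered the counts without letters through the values it shares with Ndufb4. By its separate row, which overlapped, it would not count as wholly below in any of them.

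Other genes of the pathway are given beside the share of all rows, of which 35.8% were lower, 6.38% wholly below and 18.9% wholly above the controls. Assembly factors, which insert cofactors and join subunits but are not part of the finished complexes, were lower in 25 and higher in 28 of 53 tested members, with 9 wholly below and 7 wholly above the controls, a median of 0.0055 and 0 called (limma, with 3 at an unadjusted p below 0.05). By complex their medians were -0.022 for complex I (16 genes), 0.037 for II (4), -0.0036 for III (6), 0.010 for IV (22) and 0.063 for V (5). Pet100, an early factor of complex IV, had 15.7 ± 1.73 FPKM in the controls (SD, n = 2) and 10.2 ± 2.64 FPKM in the knockouts (SD, n = 3). Cox11, which delivers copper, had 9.12 ± 0.297 and 11.3 ± 0.901 FPKM, and in both genes the groups did not overlap. Their log2 fold changes were -0.60 (SE 0.21) and 0.27 (SE 0.11), each with an adjusted p of 0.700. Among the others with the smallest p, Nubpl (-0.25), Ndufaf2 (-0.18) and Sdhaf3 (-0.21) lay wholly below the controls, Sdhaf2 (0.16) and Uqcc3 (0.080) wholly above, and Uqcc1 (-0.12), Atpaf1 (0.16) and Tmem70 (0.12) overlapped.

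The 13 transcripts of the mitochondrial genome had a median of -0.069, with 9 lower and 0 called (limma, 1 at an unadjusted p below 0.05). Of the 13, 3 lay wholly below the controls, ND4L among them (-0.44, SE 0.16), and 1 wholly above, ND3 (0.40, SE 0.18). Cytochrome c and coenzyme Q synthesis genes had 10 of 14 lower (median -0.037), with Coq7 at -0.19 (SE 0.093) and Coq3 at 0.13 (SE 0.11). Citric acid cycle genes had 7 of 13 lower (median -0.031), with Suclg2 at -0.25 (SE 0.12) and Ogdh at 0.19 (SE 0.13). Regulators of mitochondrial biogenesis had 4 of 12 lower and a median of 0.076, and 5 lay wholly above the controls, where all rows had a median of 0.061. Among them Esrra, which encodes ERRα, had 20.7 and 21.9 FPKM in the controls and 25.6, 25.9 and 23.6 FPKM in the knockouts, and the coactivator Ppargc1b had 1.11 and 1.01 FPKM and 1.91, 1.32 and 1.99 FPKM. Their log2 fold changes were 0.22 (SE 0.10, limma adjusted p = 0.711) and 0.40 (SE 0.17, 0.700). None of these lists held a called gene, and differences between lists were not tested.

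**Figure D4:**
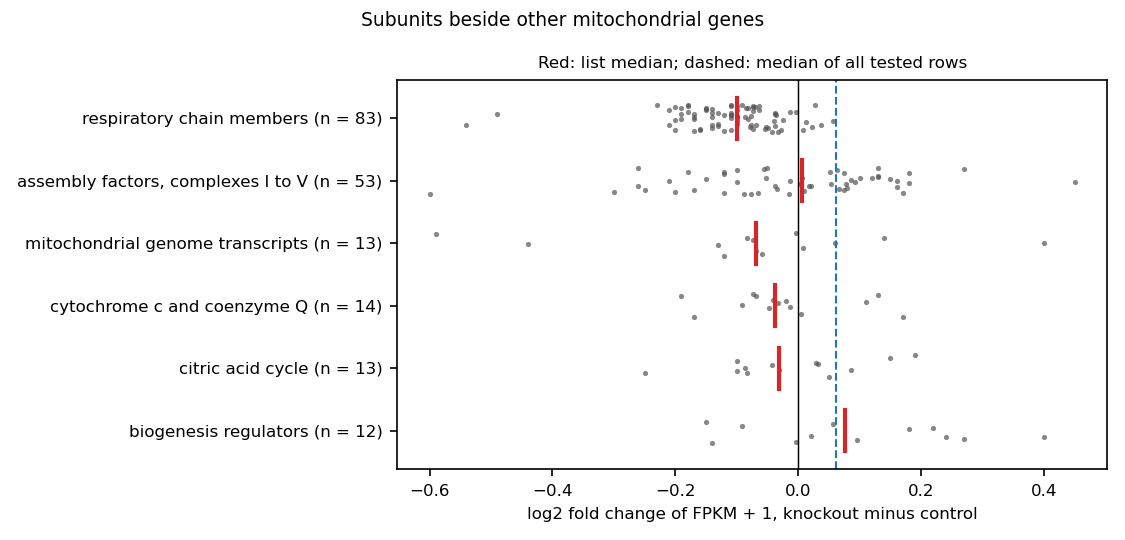
Log2 fold change of FPKM + 1, knockout minus control, of each tested gene in the respiratory chain members and 5 other mitochondrial lists. Red bars are list medians and the dashed line is the median of all tested rows, 0.061. Most members lie in a narrow band left of 0 around -0.10, while assembly factors spread on both sides around 0.0055.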

How the data were processed

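The authors deposited FPKM per gene symbol, rounded to 2 decimals, in 2 tables whose 33589 rows were identical, and 1 was used. Per the submitters' processing notes, HISAT2, StringTie and DESeq2 were used with mm10, and versions, roles, annotation and strandedness are not given in the sources used here. Low FPKM of short single-exon genes lay within 0.1 of whole multiples of a step in at most 36.1% of values, so reads were not recovered and depth is unknown. Rows with mean FPKM of at least 1 (10820) were tested with limma 3.58.1 in R 4.3.3 (trended prior) on log2(FPKM + 1), genotype the only term, two-sided, with Benjamini-Hochberg adjustment and a threshold of 0.05. This understates changes of low genes. Heg1, below the filter, was fitted with rows of at least 0.1 FPKM. Positions and longest transcript lengths came from GENCODE M21 (mm10), with 3 symbols renamed by hand. 1 member of complex I enters the counts and medians but is not reported here by itself. The test was also run on simulated data, whose outcome is not reported here, so its power with these few libraries is left unknown. Members and lists were chosen with earlier results of these data known. Named members were, per complex, the 2 most and the 1 least abundant, the 3 with the smallest p and the largest positive fold change, plus all of complex II, isoform pairs, non-subunits and 2 genes per other list. Ndufs1, Ndufa7 and Ndufb4 were chosen after their values were seen. Other settings of scaling, filter, pseudocount, weights and libraries were run as alternatives. Marker lists whose sums are not given in the results had sums of between 111 and 161 FPKM (stellate cells), at most 1.07 (adipocytes) and at most 3.76 (lymphocytes).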

Additional observations from a re-analysis of the deposited data

How the results depend on the processing

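The member median kept its sign in every alternative tried, between -0.077 (without knockout 2) and -0.17 (median-of-ratios scaling), and no member was called where a test was run (unadjusted p below 0.05 in at most 8 members, with median-of-ratios scaling). With median-of-ratios scaling the medians were -0.17 in complex II, -0.17 in complex IV and -0.15 in complex V, and 47 members lay wholly below the controls. With length correction complex II stood at -0.14, and 46 members lay wholly below. Leaving out 1 library gave complex IV medians between -0.16 and -0.077, and 0 rows were called over all genes when a knockout was left out. Between 29 and 66 members then lay wholly below the controls. With fewer libraries the share of all rows rose too, from 6.38% with every library to 12.1% without knockout 1, so these counts are not comparable with the main count. The labels number the libraries within each genotype. With the number as a replicate block, where knockout 3 is alone with its number, 5 rows were called over all genes, none of them a member, the member median was -0.080, and 71 members were lower. Deviations of same-numbered libraries correlated at 0.23 and 0.20 over 2 pairs, and nothing in the labels says that the numbers pair animals. Of 54 named genes 9 turned sign somewhere. With median-of-ratios scaling these were Ndufb4c (-0.011), Uqcrc1 (-0.054), Ndufa4l2 (-0.029) and Atp5f1b (-0.031). With quantile normalization they were Sdha (0.019), Atp5f1a (0.0046) and Ndufa4l2 (-0.062). Uqcrc1 was -0.034 with length correction, and Ndufa4l2 was -0.019 and Cox7a2l 0.025 with the block. Leaving out 1 library gave between -0.028 and 0.14 for Ndufb4c, -0.087 and 0.011 for Sdha, -0.11 and 0.13 for Uqcrc1, -0.31 and 0.36 for Ndufa4l2, -0.0039 and 0.078 for Atp5f1b, -0.12 and 0.06 for Atp5if1, -0.047 and 0.025 for Cox7a2l and -0.32 and 0.0046 for Uqcc1. Counting the 78 subunits alone, chosen after seeing the data, left 74 lower and 28 wholly below. The cause of these turns was not tested. Depth is unknown, so counting error could not be separated from the spread between libraries.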
